A study of Mus musculus with 17 samples.

Results

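The 35 genes described here mark endothelial cells, the cells that line blood vessels and lymph vessels, and they were followed in whole skeletal muscle of mice with type 1 diabetes. They were taken from a list of endothelial receptors, junction proteins, transcription factors and secreted or luminal proteins. The list was proposed with earlier results of these data known. A gene was measured by the probe sets of the array that carry its symbol and no other. Each of the 35 had 1 such probe set, so all 35 were measured, among 19938 genes in the table. Total RNA of muscle from 17 male wildtype C57BL/6N mice, 5 to 6 months old, had been hybridised to 1 array per mouse. Con,SD mice (n = 7) ate standard chow and, per the labels, had been mock-injected with citrate buffer. STZ,SD mice (n = 5) had received 65 mg/kg streptozotocin, which destroys the beta cells of the pancreas and so removes insulin, on 5 days at 10 to 16 weeks of age and ate the same chow. STZ,BEZ mice (n = 5) had received streptozotocin and, from 2 weeks later, 8 weeks of chow with bezafibrate at 0.25% or 0.5%, a fibrate that activates the peroxisome proliferator-activated receptors. Which mouse ate which strength is not given, and the methods of the study differ from the labels in that they state a lower streptozotocin dose, the higher bezafibrate strength alone and untreated controls. The muscle sampled is unnamed in the sources used.

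Endothelial cells of muscle form a dense capillary bed around the fibres, through which oxygen, glucose, fatty acids and insulin reach them. Vascular endothelial growth factors act on receptor tyrosine kinases of these cells, angiopoietins act on the Tie receptors, and Notch ligands passed between neighbouring cells restrain sprouting. Adhesion proteins hold the cells together and set how leaky the wall is, while transcription factors of the ETS and SOX families keep up the endothelial programme.

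ETS factors, among them the members Erg and Fli1, bind DNA around the letters GGAA, and SOX factors, among them Sox7, Sox17 and Sox18, around the letters ACAAT. The 250 bases upstream of the start given for each promoter were read from RefSeq promoter sequences of GRCm38.p6. These held 17 of the 35 genes with 22 promoters between them. Some of these stretches lie inside the outer bounds of the gene, among them those of Flt1 and Kdr. The letters GGAAGT, or ACTTCC where the motif lies on the other strand, stood in the promoters of 5 of these 17 genes, that is 29.4%, against 23.5% of the 15614 tested genes with a promoter. Of the 7 genes with a promoter that were higher in STZ,SD than in Con,SD, 4 held these letters. The SOX letters AACAAT, or ATTGTT, stood in 3 of the 17, that is 17.6%, against 8.96% of the tested genes, and in 0 of those 7. A match is a description of the letters and not a site of binding. Shown, with the ETS letters in capitals, are 3 promoters picked for a match, from genes that rose, and the promoter of Cd34, the gene that fell. The Cd34 promoter held neither motif, though the letters GGAA alone occur in it. Dll4, Rasip1 and Robo4 rose in STZ,SD without a match, and Kdr held the ETS letters and was not called. Eng lies at chr2:32646345-32646594 on the plus strand, Tie1 at chr4:118489850-118490099 and Flt1 at chr5:147726012-147726261, both on the minus strand, and Cd34 at chr1:194938571-194938820 on the plus strand.
Eng: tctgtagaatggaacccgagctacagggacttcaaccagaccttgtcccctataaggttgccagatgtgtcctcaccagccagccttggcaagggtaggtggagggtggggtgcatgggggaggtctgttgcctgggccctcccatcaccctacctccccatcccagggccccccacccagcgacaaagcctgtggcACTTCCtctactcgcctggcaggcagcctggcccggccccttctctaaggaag
Tie1: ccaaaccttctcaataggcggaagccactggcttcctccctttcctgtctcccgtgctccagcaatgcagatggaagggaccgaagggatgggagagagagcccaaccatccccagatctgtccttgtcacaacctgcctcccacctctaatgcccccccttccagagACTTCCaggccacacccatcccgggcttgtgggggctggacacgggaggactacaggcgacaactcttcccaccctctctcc
Flt1: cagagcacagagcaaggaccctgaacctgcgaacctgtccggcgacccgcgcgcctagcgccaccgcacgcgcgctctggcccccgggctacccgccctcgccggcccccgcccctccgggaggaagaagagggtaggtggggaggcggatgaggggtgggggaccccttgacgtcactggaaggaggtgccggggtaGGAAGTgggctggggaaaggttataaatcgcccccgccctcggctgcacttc
Cd34: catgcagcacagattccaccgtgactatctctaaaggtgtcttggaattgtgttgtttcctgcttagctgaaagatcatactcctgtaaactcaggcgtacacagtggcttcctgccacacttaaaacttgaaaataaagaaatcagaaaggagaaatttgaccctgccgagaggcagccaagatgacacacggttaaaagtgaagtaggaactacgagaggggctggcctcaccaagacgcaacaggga

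The values are log2 expression values, so a difference of 1 is a doubling, and levels of different genes were not set against each other. Array medians lay between 6.22 and 6.32, and arrays of a group correlated at 0.959 or more. Markers of skeletal muscle fibres stood high on every array, with a mean over 11 genes between 11.9 and 12.7. Con,SD array 1 stood apart in other markers, with a mean of 11.7 over 13 hepatocyte genes where the next highest array of any group read 9.62, and a mean of 8.60 over 10 testis germ cell genes where the next highest read 5.78. The part of this array in the results is given where its removal changes a call. Differences are given ± SE from limma fitted over all 19938 genes, with Benjamini-Hochberg adjusted p, and a gene was called when that p was under 0.1, the false discovery rate used by the study. By the labels each array is a biological replicate of its own. The number of arrays limits the precision of every difference.

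How diabetes without treatment changed these genes was read from STZ,SD against Con,SD. Of the 35 genes 16 were called, beside 25.8% of all genes tested, and 15 rose and 1 fell, beside 13.9% of all genes that rose and 11.9% that fell. In the 35, this was 42.9% higher and 2.9% lower. All genes include dim ones. Without the 30% of genes with the lowest mean value, 34.3% of the rest were called, 20.8% higher and 13.6% lower, with a median difference of 0.03. Their median difference was 0.14, beside a median of -0.01 over all genes, and 30 of the 35 differences were above 0. Because the 35 were chosen with earlier results of these data known, these shares and medians are a description and not a test. The changes were small, and the largest of a called gene was 1.56-fold, in S1pr1. The mean of the 35 genes lay between 8.03 and 8.19 on the Con,SD arrays, between 8.17 and 8.34 on the STZ,SD arrays and between 8.24 and 8.31 on the STZ,BEZ arrays, so that STZ,SD arrays 4 and 5 reached into the range of the controls and no STZ,BEZ array did. In whole muscle, more endothelial cells and more RNA of these genes per cell cannot be told apart. In 3 genes, Eng, Robo4 and Plvap, every STZ,SD array lay above every Con,SD array, which is 8.6% of the 35 beside 4.87% of all genes, and in 0 did every STZ,SD array lie below, beside 3.43%. Significance analysis of microarrays called 17 of the 35, 15 higher and 2 lower, beside 26.2% of all genes called by it. The hepatocyte markers were higher on Con,SD arrays 1 to 3 than on any diabetic array, and with their mean as a covariate 13 of the 35 were called higher and 3 lower, beside 13.4% and 14.1% of all genes.

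**Figure D1:**
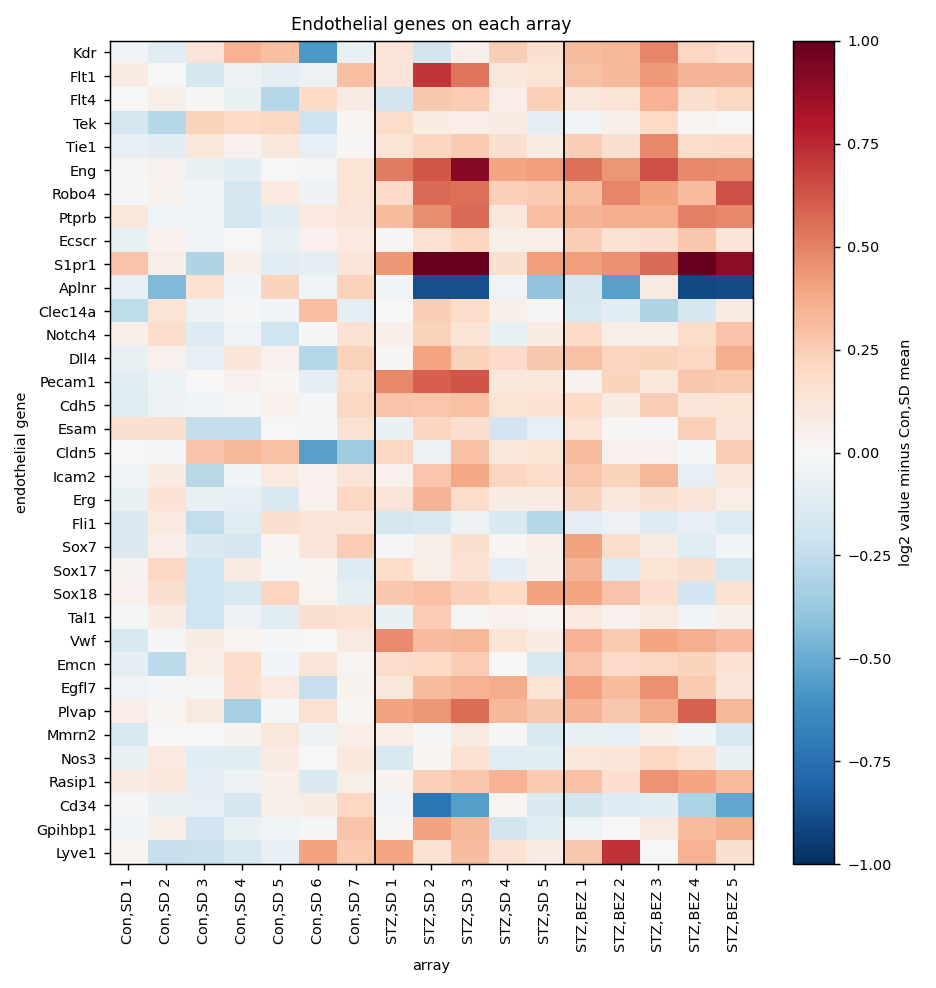
Each row is 1 of the 35 endothelial genes and each column 1 array, and the colour is the log2 value minus the mean of that gene over the 7 Con,SD arrays, from -1 in blue to 1 in red, where values beyond these limits take the end colour. Red runs across the diabetic arrays for Eng, Robo4, Ptprb and S1pr1, and Aplnr and Cd34 are blue on STZ,SD arrays 2 and 3 and STZ,BEZ arrays 4 and 5.

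Among the 5 receptor tyrosine kinases of the vascular growth factor and Tie families, Flt1 and Tie1 rose. That is 40% beside 13.9% of all genes. Flt1, a receptor that binds vascular endothelial growth factor A and keeps it from Kdr, read from 8.71 to 9.19 with a median of 8.84 in Con,SD, and 9.02, 9.60, 9.42, 9.003 and 9.03 on STZ,SD arrays 1 to 5. Arrays 2 and 3 lay above all controls and the other 3 within their range. The difference was 0.33 ± 0.10 (limma, adjusted p = 0.0306), and it fell to 0.29 and was no longer called with Con,SD arrays 1, 3 and 4 left out together. Tie1, the Tie family receptor without a well-settled ligand, read from 7.76 to 7.98 in Con,SD with a median of 7.88, and 8.01, 8.09, 8.13, 8.03 and 7.95 in STZ,SD, where 4 arrays lay above all controls. Its difference was 0.17 ± 0.06 (limma, adjusted p = 0.0749). The call of Tie1 was close to the limit and was lost when any of 6 arrays was left out (Con,SD 1, 2 and 6 and STZ,SD 2, 3 and 4, differences 0.15 to 0.17) and under 7 further settings. Kdr, the main signalling receptor for vascular endothelial growth factor A, differed by 0.08 ± 0.12, Tek, the angiopoietin receptor, by 0.06 ± 0.09 and Flt4, the receptor of lymph vessels for vascular endothelial growth factors C and D, by 0.13 ± 0.09, and none of these 3 was called. For Flt4 the difference was 0.21 and called without STZ,SD array 1.

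Of the 7 other receptors and receptor-like proteins at the cell surface, Eng, Robo4, Ptprb and S1pr1 rose. That is 57.1% beside 13.9% of all genes. Eng encodes endoglin, a co-receptor for ligands of the transforming growth factor beta family. It read from 8.74 to 8.99 in Con,SD with a median of 8.86, and 9.37, 9.47, 9.76, 9.25 and 9.27 in STZ,SD. The groups did not overlap, and the difference was 0.57 ± 0.08, a 1.49-fold rise (limma, adjusted p = 8.5e-05). Robo4, an endothelial roundabout receptor that stabilises vessels, read from 7.50 to 7.81 in Con,SD with a median of 7.67, and 7.87, 8.24, 8.23, 7.92 and 7.94 in STZ,SD. All 5 diabetic arrays were above the controls, 2 of them well above the other 3, and the difference was 0.36 ± 0.08 (limma, adjusted p = 0.00439). Ptprb, the phosphatase that dampens Tek and junctional signalling, read from 9.10 to 9.39 in Con,SD with a median of 9.25, and 9.59, 9.74, 9.84, 9.38 and 9.57 in STZ,SD. Only STZ,SD array 4 reached into the control range, and the difference was 0.35 ± 0.07 (limma, adjusted p = 0.00327). S1pr1, the receptor for sphingosine-1-phosphate that tightens the vessel wall, differed by 0.64 ± 0.16 (limma, adjusted p = 0.00947) and varied widely between mice, as described further on. Ecscr, a surface protein of endothelial cells that takes part in their migration, differed by 0.10 ± 0.05 (limma, adjusted p = 0.184). Clec14a, a C-type lectin of endothelial cells, differed by 0.10 ± 0.09 and read below the array median on every array. Aplnr, the apelin receptor, averaged 8.14 in Con,SD and 7.69 in STZ,SD, a difference of -0.44 ± 0.19 that was not called (limma, adjusted p = 0.11). It was called, at -0.44 to -0.55, when Con,SD array 2, STZ,SD array 1 or 4, or STZ,BEZ array 3 was removed, and under 6 further settings.

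**Figure D2:**
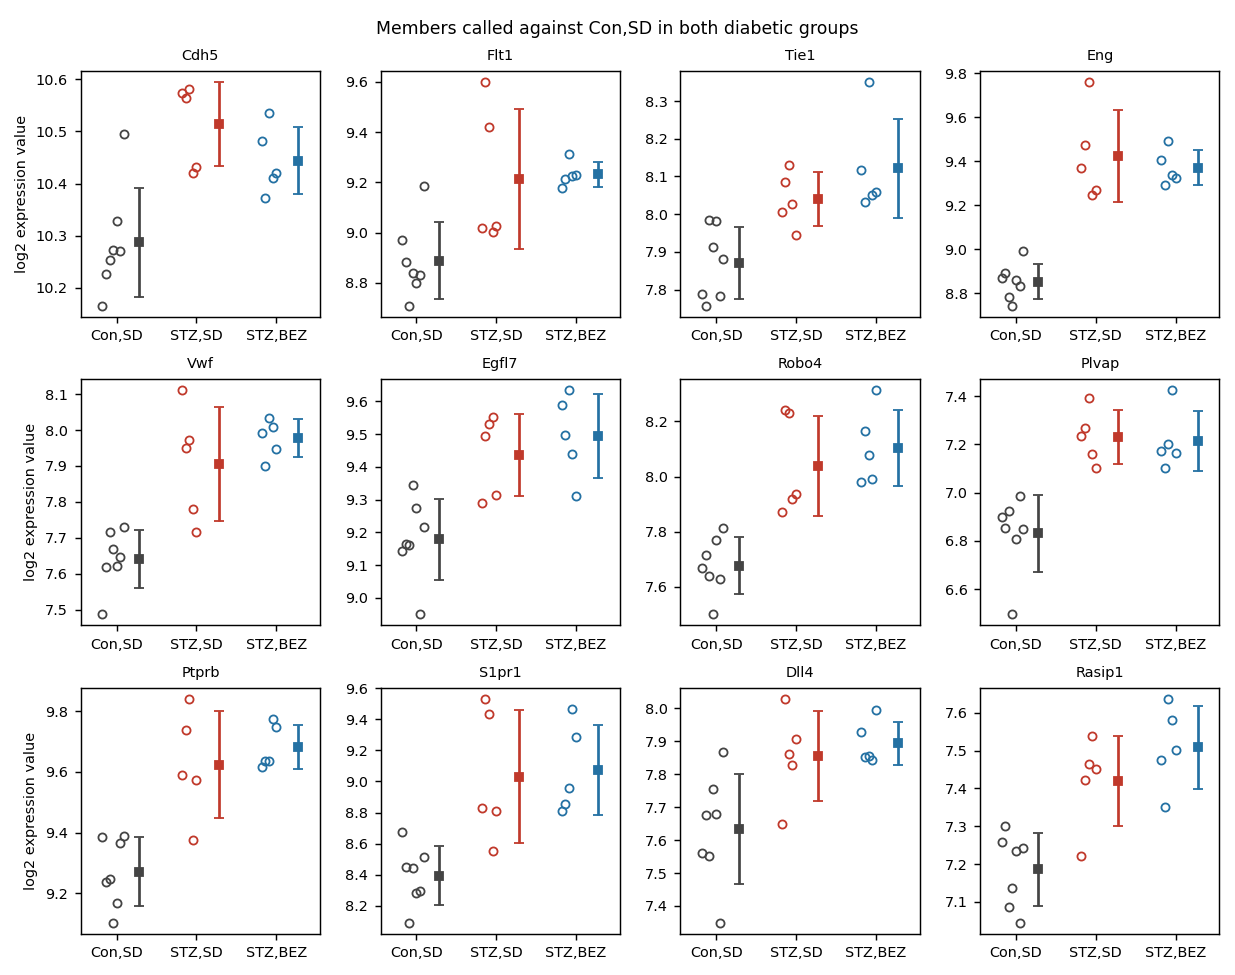
The log2 expression values (vertical axis) of the 12 genes called higher than Con,SD in both STZ,SD and STZ,BEZ, with 1 open circle per array and the group mean ± SD as a square with a bar (n = 7, 5 and 5). The diabetic arrays of Eng and Plvap lie wholly above the controls in both groups, and Cdh5 and Flt1 each have 1 control array as high as some diabetic ones.

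Of the 2 genes of the Notch pathway, Dll4 was called higher and Notch4 was not called, that is 50% beside 13.9% of all genes. Dll4, the Notch ligand of arteries and of tip cells, read from 7.35 to 7.87 in Con,SD with a median of 7.68, and 7.65, 8.03, 7.86, 7.83 and 7.91 in STZ,SD. Arrays 2 and 5 lay above all controls, arrays 3 and 4 within the upper part of their range and array 1 just below their median. The difference was 0.22 ± 0.08 (limma, adjusted p = 0.0598) and lost its call without any of 5 arrays (Con,SD 3 and 6, STZ,SD 2, 3 and 5, differences 0.17 to 0.22) and under 4 further settings. Notch4, an endothelial Notch receptor, differed by 0.08 ± 0.07.

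Junction and adhesion genes rose in 3 of 5 cases, namely Pecam1, Cdh5 and Icam2, that is 60% beside 13.9% of all genes. Pecam1, the adhesion protein CD31 by which endothelium is commonly stained, read from 8.33 to 8.62 in Con,SD with a median of 8.45, and 8.92, 9.04, 9.07, 8.55 and 8.55 in STZ,SD. The first 3 diabetic arrays lay above all controls and arrays 4 and 5 within their range. The difference was 0.39 ± 0.09 (limma, adjusted p = 0.00645). Cdh5, the cadherin of endothelial adherens junctions, read from 10.17 to 10.50 in Con,SD with a median of 10.27, and 10.57, 10.56, 10.58, 10.42 and 10.43 in STZ,SD, again with arrays 1 to 3 above all controls. Its difference was 0.23 ± 0.06 (limma, adjusted p = 0.0114). Icam2, an adhesion protein for leucocytes that resting endothelium carries, read from 6.66 to 7.07 in Con,SD with a median of 6.99, and 6.98, 7.22, 7.33, 7.15 and 7.12 in STZ,SD. Its difference was 0.22 ± 0.08 (limma, adjusted p = 0.0708), it was not called when array 3 of Con,SD or any of arrays 2, 3 and 4 of STZ,SD was left out (0.17 to 0.22), and it was 0.13 without Con,SD arrays 1, 3 and 4. Cldn5, the tight junction claudin of endothelium, differed by 0.14 ± 0.13, and Esam, an adhesion molecule of the junction, by 0.01 ± 0.09. The controls of Cldn5 alone spanned 8.02 to 8.89, a wider range than its diabetic arrays covered in either group.

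Of the 6 transcription factors 1 was called, as higher, that is 16.7% beside 13.9% of all genes, or 20.8% without the 30% dimmest genes. Sox18, a SOX factor of arteries and lymph vessels, read from 7.90 to 8.31 in Con,SD with a median of 8.13, and 8.37, 8.39, 8.34, 8.30 and 8.50 in STZ,SD. Array 4 alone lay within the control range, and the difference was 0.28 ± 0.09 (limma, adjusted p = 0.0383), or 0.20 and not called without Con,SD arrays 1, 3 and 4. Its relatives Sox7 and Sox17 differed by 0.06 ± 0.09 and 0.07 ± 0.09, and Tal1, a factor of blood and endothelial precursors, by 0.05 ± 0.07. The ETS factors Erg and Fli1 had differences of opposite sign, 0.16 ± 0.07 (limma, adjusted p = 0.103) and -0.16 ± 0.07 (limma, adjusted p = 0.124). Neither was called, but each lay close enough to the limit to be called under other choices, Erg without 1 of the arrays 2 and 7 of Con,SD or 4 and 5 of STZ,SD (0.18 to 0.20), and Fli1 without Con,SD array 1, 3 or 4 (-0.20 to -0.18). Fli1 is also expressed by blood cells.

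Of the 10 genes for secreted, matrix, luminal or intracellular proteins of the vessel wall, Vwf, Egfl7, Plvap and Rasip1 rose and Cd34 fell. That is 40% higher and 10% lower, beside 13.9% and 11.9% of all genes. Plvap, which builds the diaphragms of fenestrae and caveolae, read from 6.50 to 6.99 in Con,SD with a median of 6.85, and 7.23, 7.27, 7.39, 7.16 and 7.10 in STZ,SD. The groups did not overlap, and the difference was 0.40 ± 0.08 (limma, adjusted p = 0.00201). Vwf, von Willebrand factor, to which platelets adhere, read from 7.49 to 7.73 in Con,SD with a median of 7.65, and 8.11, 7.95, 7.97, 7.78 and 7.72 in STZ,SD. Only array 5 reached into the control range, and the difference was 0.26 ± 0.07 (limma, adjusted p = 0.00855). Egfl7, a secreted protein that guides vessel tube formation and whose gene harbours a microRNA, read from 8.95 to 9.35 in Con,SD with a median of 9.17, and 9.29, 9.50, 9.53, 9.55 and 9.31 in STZ,SD, of which 3 lay above the controls. Its difference was 0.26 ± 0.07 (limma, adjusted p = 0.0215). Rasip1, a Ras-interacting protein needed for vessel lumens, read from 7.05 to 7.30 in Con,SD with a median of 7.23, and 7.22, 7.42, 7.46, 7.54 and 7.45 in STZ,SD. Array 1 alone overlapped the controls, and the difference was 0.23 ± 0.07 (limma, adjusted p = 0.0201). The differences of Nos3, the endothelial nitric oxide synthase, were -0.04 ± 0.07, of Mmrn2, a matrix protein that binds Clec14a, -0.01 ± 0.06, of Emcn, the sialomucin endomucin, 0.10 ± 0.08, and of Gpihbp1, which carries lipoprotein lipase to the capillary lumen, 0.09 ± 0.11. Lyve1, the hyaluronan receptor of lymphatic endothelium that some macrophages share, differed by 0.21 ± 0.12 (limma, adjusted p = 0.248).

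Mice of 1 diabetic group differed widely in S1pr1, Aplnr and Cd34, and the same 4 arrays carried the extremes of all 3. S1pr1 read from 8.09 to 8.68 in Con,SD with a median of 8.44. It read 8.83, 9.53, 9.43, 8.55 and 8.81 on STZ,SD arrays 1 to 5 and 8.81, 8.85, 8.96, 9.46 and 9.29 on STZ,BEZ arrays 1 to 5. STZ,SD arrays 2 and 3 and STZ,BEZ arrays 4 and 5 were the highest. The within-group SD of S1pr1 was larger than that of 94.2% of all genes, and without STZ,SD array 2 or any other array it was still called. Aplnr read from 7.69 to 8.36 in Con,SD with a median of 8.10. In STZ,SD it read 8.10, 7.26, 7.26, 8.09 and 7.74, and in STZ,BEZ 7.97, 7.60, 8.22, 7.23 and 7.24. The same 4 arrays were the lowest, and the SD lay above that of 96.2% of genes. Cd34, a sialomucin of capillaries that fibroblast-like cells of muscle also carry, read from 10.36 to 10.73 in Con,SD with a median of 10.52. In STZ,SD it read 10.50, 9.81, 9.98, 10.55 and 10.38, and in STZ,BEZ 10.34, 10.40, 10.42, 10.21 and 10.01. Only STZ,SD arrays 2 and 3 lay below the controls in the first group, and the difference of -0.29 ± 0.12 (limma, adjusted p = 0.0967) fell just inside the limit. The call of Cd34 was lost when any of 12 arrays was left out (every Con,SD array but 4, STZ,SD 2 and 3, and STZ,BEZ 1 to 4) and under 4 further settings, and without STZ,SD array 2 the difference was -0.18.

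The markers of fibroblasts were lowest on the same 4 arrays, where Aplnr and Cd34 were lowest and S1pr1 was highest. Those of macrophages were lowest there among the diabetic arrays. The mean of 10 macrophage markers was 7.34 and 7.24 on STZ,SD arrays 2 and 3 and 7.49 and 7.41 on STZ,BEZ arrays 4 and 5, the lowest of the diabetic arrays, of which the others read 7.62 to 8.05. The part of macrophages in the result was not tested. The mean of 10 fibroblast markers was 8.70 and 8.81 on STZ,SD arrays 2 and 3 and 9.29 and 9.02 on STZ,BEZ arrays 4 and 5, and it lay between 9.44 and 9.85 on the other 13 arrays. Of the 10 fibroblast markers 1 was called lower in STZ,SD, Dpt, that is 10% beside 11.9% of all genes, and 0 higher. The differences lay between -0.89 and 0.30. None of the 10 was called in STZ,BEZ against Con,SD, beside 21.6% of all genes. With the fibroblast mean as a covariate, a setting chosen after the data were seen, the difference between STZ,SD and Con,SD was 0.45 for S1pr1 (limma, adjusted p = 0.00382), -0.23 for Aplnr (limma, adjusted p = 0.199) and -0.14 for Cd34 (limma, adjusted p = 0.0834). Under this setting 13 of the 35 genes were called, 12 higher and 1 lower, beside 13.2% and 10.4% of all genes, and all 13 were among the 16 called without it.

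**Figure D3:**
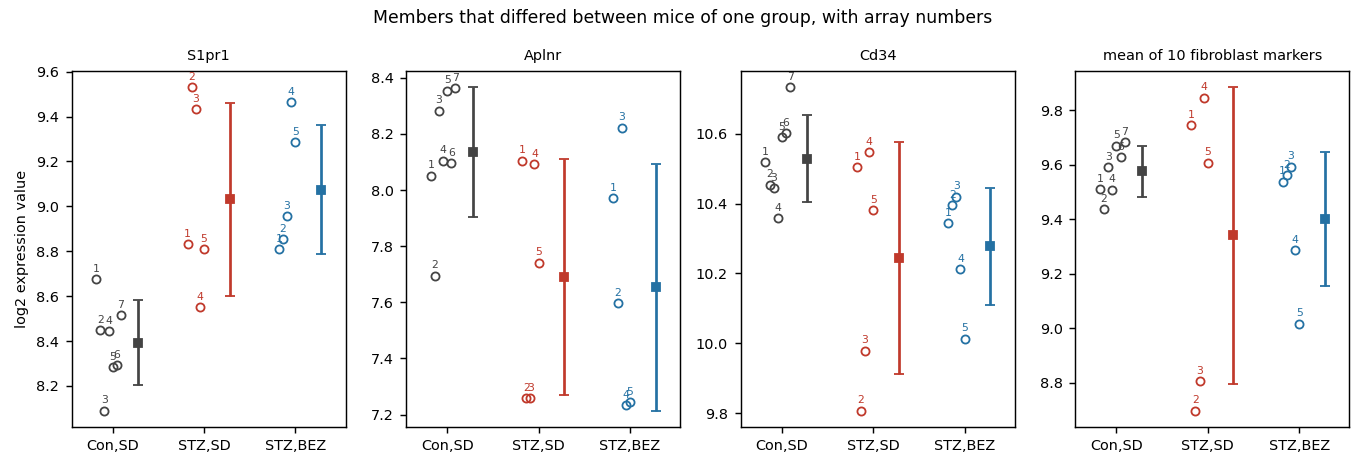
The log2 expression values of S1pr1, Aplnr and Cd34, and the mean log2 value of 10 fibroblast markers (vertical axes), with 1 numbered circle per array and the group mean ± SD as a square with a bar (n = 7, 5 and 5). STZ,SD arrays 2 and 3 and STZ,BEZ arrays 4 and 5 are the highest for S1pr1 and the lowest for the other panels.

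At the other end, Ecscr and Cdh5 had among the smallest spreads, with a within-group SD larger than that of 2.1% and 8.1% of genes.

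STZ,BEZ was set against Con,SD to see how far diabetic mice on bezafibrate stood from healthy ones. It shares the 7 Con,SD arrays with the comparison above, so the 2 are not independent and their values are given side by side. Of the 35 genes 15 were called, beside 21.6% of all genes, and 14 were higher and 1 was lower, that is 40% and 2.9%, beside 13.1% higher and 8.45% lower among all genes. The median difference was 0.17, beside -0.01 over all genes. Without the 30% dimmest genes, 29.2% of the rest were called, 19.8% higher and 9.36% lower, with a median difference of 0.03. In 9 genes, Tie1, Eng, Vwf, Robo4, Plvap, Ptprb, Ecscr, S1pr1 and Rasip1, all 5 STZ,BEZ arrays lay above all 7 controls, which is 25.7% of the 35 beside 6.01% of all genes, and in 0 did they lie below all controls, beside 2.5%. Significance analysis of microarrays called 19, 17 higher and 2 lower, beside 23.9% of all genes. Of the 13 hepatocyte markers 8 were called lower in STZ,BEZ. With their mean as a covariate limma called 12 of the 35 higher and 1 lower, beside 10.8% and 10.2% of all genes.

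Called higher in both comparisons were 12 genes. Eng read 9.41, 9.29, 9.49, 9.34 and 9.32 in STZ,BEZ and differed from Con,SD by 0.52 ± 0.08 (limma, adjusted p = 0.000316), beside 0.57 without bezafibrate. S1pr1 differed by 0.68 ± 0.16, beside 0.64. Ptprb read 9.61, 9.64, 9.64, 9.78 and 9.75, all above the controls, and differed by 0.41 ± 0.07, beside 0.35. In these 3 receptors the bezafibrate arrays stood about where the diabetic arrays stood. Robo4, at 7.98, 8.16, 8.08, 7.99 and 8.31, differed by 0.43 ± 0.08, beside 0.36. Vwf read 7.99, 7.90, 8.03, 8.01 and 7.95, a narrower range than in STZ,SD, and differed by 0.34 ± 0.07, beside 0.26. The overlap that Vwf had with the controls in STZ,SD was absent in STZ,BEZ. Plvap differed by 0.38 ± 0.08, beside 0.40, and Rasip1 by 0.32 ± 0.07, beside 0.23. Egfl7 differed by 0.31 ± 0.07, beside 0.26, and Tie1 by 0.25 ± 0.06, beside 0.17. Flt1 read 9.18, 9.21, 9.31, 9.23 and 9.23 without the split between mice seen in STZ,SD, and differed by 0.34 ± 0.10, beside 0.33, which was 0.31 and not called without Con,SD arrays 1, 3 and 4. Dll4 differed by 0.26 ± 0.08 and was not called after a second quantile normalization (0.20). Cdh5 differed by 0.16 ± 0.06 (limma, adjusted p = 0.0813), and this call was lost when any of 9 arrays was left out (Con,SD 1, 2, 3, 4 and 6, and STZ,BEZ 1, 3, 4 and 5, differences 0.13 to 0.17) and under 8 further settings.

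Some genes were called in 1 of these comparisons, which does not show that the 2 diabetic groups differ, and the direct comparison of these groups called none of the 35. Ecscr read from 8.51 to 8.68 in Con,SD with a median of 8.58, and 8.82, 8.73, 8.75, 8.85 and 8.71 in STZ,BEZ, wholly above the controls, with a difference of 0.19 ± 0.05 (limma, adjusted p = 0.02) beside 0.10 in STZ,SD. It was not called after a second quantile normalization (0.15) or without Con,SD arrays 1, 3 and 4 (0.16). Emcn differed by 0.21 ± 0.08 (limma, adjusted p = 0.0805), beside 0.10, and was not called when any STZ,BEZ array or Con,SD array 1, 2 or 5 was left out (0.17 to 0.23) or under 5 further settings, among them the hepatocyte level as a covariate (0.13). Aplnr fell by 0.48 ± 0.19 (limma, adjusted p = 0.0936), beside -0.44, and lost its call without any of 9 arrays (Con,SD 3 to 7, STZ,SD 5, and STZ,BEZ 2, 4 and 5) and under 2 further settings. Pecam1 differed by 0.18 ± 0.09 (limma, adjusted p = 0.184), beside 0.39, Sox18 by 0.16 ± 0.09, beside 0.28, Icam2 by 0.17 ± 0.08, beside 0.22, and Cd34 by -0.25 ± 0.12, beside -0.29. None of these 4 was called by limma with all arrays. Pecam1 and Cd34 were called by significance analysis of microarrays and with only the compared groups in the fit, Cd34 also without STZ,SD array 2 and under 2 further settings, and Sox18 (0.25) and Icam2 (0.23) without STZ,BEZ array 4. Kdr, at 8.63, 8.65, 8.80, 8.52 and 8.48, differed from Con,SD by 0.30 ± 0.12 (limma, adjusted p = 0.112), and Lyve1 by 0.30 ± 0.12 (limma, adjusted p = 0.113). Both were called under 7 of 28 other settings, Kdr without Con,SD array 4 or 5 and Lyve1 without Con,SD array 6 or 7 or STZ,BEZ array 3 among them. Of the other 14 genes, which limma did not call with all arrays, the differences lay between -0.13 for Clec14a and 0.19 for Flt4. Other settings called 3 of them. Flt4 was called by significance analysis of microarrays, with the replicate number as a block (0.25) and when STZ,SD array 1 (0.19) or Con,SD array 6 (0.23) was left out, Erg with that block (0.19) and without Con,SD array 7 (0.17), and Fli1 as lower without Con,SD arrays 1, 3 and 4 (-0.23).

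**Figure D4:**
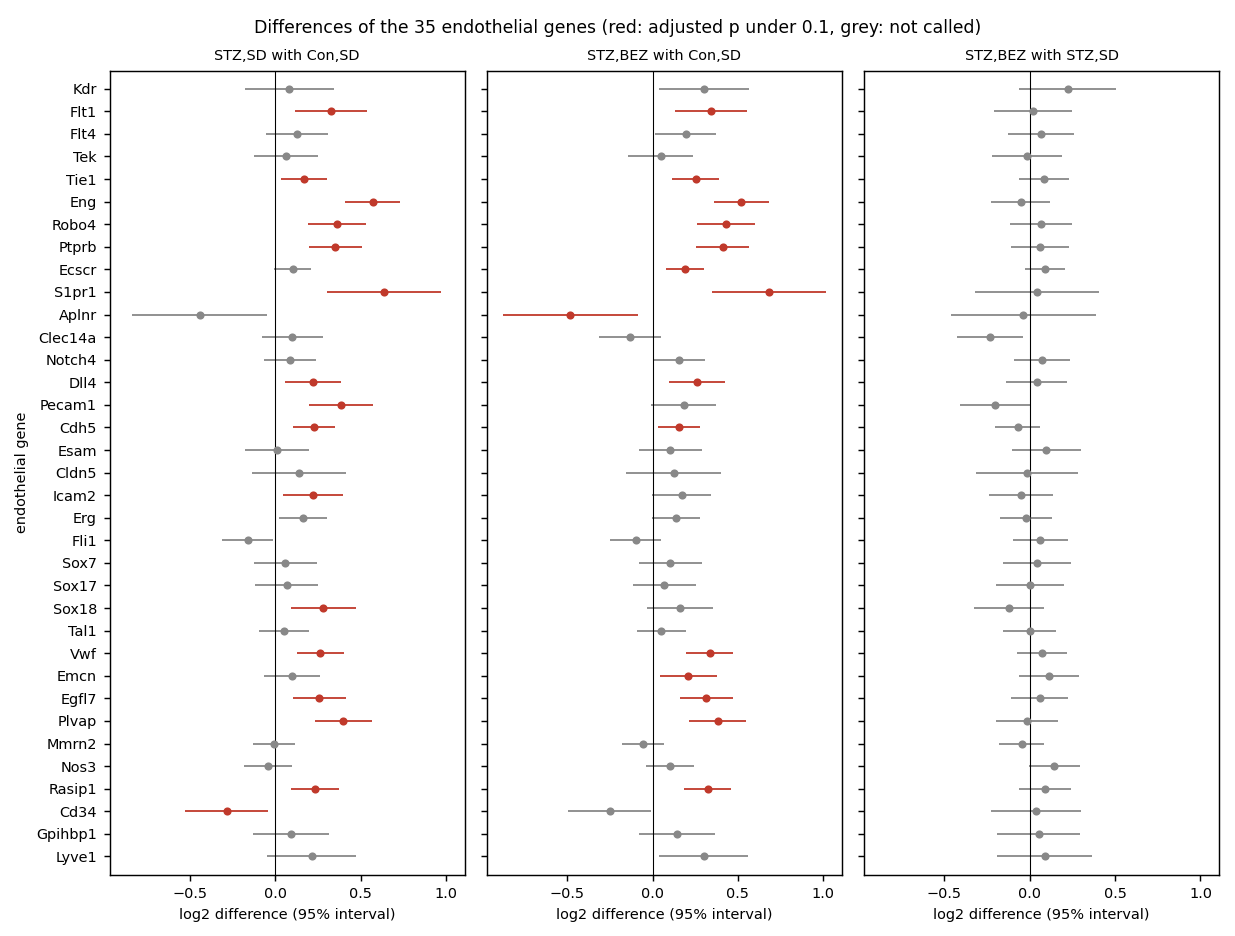
The log2 differences of the 35 endothelial genes (horizontal axis) with 95% intervals from limma in the 3 comparisons, with genes called at an adjusted p under 0.1 in red and the others in grey. In the panels against Con,SD 30 of 35 points lie right of 0, and in STZ,BEZ with STZ,SD 34 of 35 intervals include 0.

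The effect of bezafibrate itself was read from STZ,BEZ against STZ,SD, which shares arrays with both comparisons above. By limma 0 of the 35 genes were called, beside 0.0201% of all genes, and significance analysis of microarrays also called 0, beside 0.125% of all genes. At an unadjusted p under 0.05 (limma) there was 1 of the 35, that is 2.9%, beside 1134 of all 19938 genes. This gene was Clec14a, which read below the array median on every array. It read 5.79, 6.04, 5.97, 5.84 and 5.80 in STZ,SD and 5.63, 5.69, 5.49, 5.61 and 5.87 in STZ,BEZ, where 4 of 5 arrays lay below all STZ,SD arrays. Its difference was -0.23 ± 0.09 (limma, unadjusted p = 0.0216, adjusted p = 0.824). The differences of the 35 lay between -0.23 and 0.22 with a median of 0.04, beside 0.00 over all genes, and 22 were above 0. The 95% intervals reached from -0.46, for Aplnr, to 0.50, for Kdr. Kdr differed by 0.22 ± 0.13, Pecam1 by -0.20 ± 0.10 with an interval from -0.41 to 0.00, and Nos3 by 0.14 ± 0.07 with an interval from -0.01 to 0.30. For Eng the interval of the difference ran from -0.23 to 0.12 and for Cdh5 from -0.20 to 0.06, while for the more variable S1pr1 it ran from -0.32 to 0.40. A p that missed the limit does not show that both diets left these genes alike. In 0 of the 35 did the groups not overlap, beside 0.677% of all genes higher and 0.487% lower.

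Genes outside the 35 that act with them or mark the same cells were counted from lists chosen with earlier results of these data known. Of 39 other genes enriched in endothelium, 19 were higher (48.7%) and 3 lower (7.7%) in STZ,SD than in Con,SD, with a median of 0.20. In STZ,BEZ 25 were higher (64.1%) and 2 lower (5.1%), with a median of 0.29. Among all genes 13.9% were higher and 11.9% lower in STZ,SD, and 13.1% and 8.45% in STZ,BEZ. Cyyr1, a little-known membrane protein gene, differed by 0.74 ± 0.12, Adgrf5, an adhesion receptor, by 0.57 ± 0.14, Shank3, a scaffold protein, by 0.39 ± 0.08 and Ets2, an ETS factor, by 0.35 ± 0.05 in STZ,SD. The 3 that fell were Aqp1, the water channel of capillaries, Gimap4 and Palmd. In STZ,BEZ the smallest adjusted p belonged to Shank3 (0.50 ± 0.08), to Klf2 (0.63 ± 0.10) and Klf4 (0.49 ± 0.09), factors that respond to blood flow, and to Ets2 (0.29 ± 0.05).

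Of 27 ligands of endothelial receptors, 7 were higher (25.9%) and 0 lower in STZ,SD, beside 13.9% and 11.9% of all genes. The differences were 0.48 ± 0.08 for Tgfb2 and 0.28 ± 0.07 for Tgfb1, ligands of the family that endoglin binds, 0.33 ± 0.07 for Slit3, a guidance protein, and 0.33 ± 0.08 for Edn1, the vasoconstrictor endothelin. In STZ,BEZ 6 were higher (22.2%) and 1 lower (3.7%), beside 13.1% and 8.45% of all genes. The differences there were 0.51 ± 0.08 for Tgfb2, 0.42 ± 0.07 for Tgfb1, 0.23 ± 0.07 for Slit3 and 0.25 ± 0.08 for Vegfa. The ligand that was lower was Apln, which encodes apelin, with -0.25 ± 0.09 and its receptor Aplnr was the gene that was lower among the 35. In STZ,SD Vegfa differed by 0.07 ± 0.08 and Apln by -0.12 ± 0.09, and neither was called. Of 36 co-receptors, signal carriers and pathway targets, 13 were higher (36.1%) and 2 lower (5.6%) in STZ,SD, beside 13.9% and 11.9% of all genes. Those with the smallest adjusted p were Smad1 (0.44 ± 0.05), Tgfbr1 (0.52 ± 0.07), Calcrl (0.55 ± 0.08) and Tgfbr3 (0.47 ± 0.09), of which Smad1 and both Tgfbr genes carry signals of the transforming growth factor beta family and Calcrl is the receptor for adrenomedullin. In STZ,BEZ 15 were higher (41.7%) and 0 lower, beside 13.1% and 8.45% of all genes. The smallest adjusted p there belonged to Smad1 (0.49 ± 0.05), Tgfbr1 (0.48 ± 0.07), Calcrl (0.49 ± 0.08) and Tgfbr2 (0.34 ± 0.06).

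Activation genes of endothelium for leucocyte adhesion gave 1 higher of 10 in STZ,SD, that is 10% beside 13.9% of all genes, Nfkbia, an inhibitor of NF-kB, with 0.58 ± 0.17, while Icam1 differed by 0.20 ± 0.08 and Vcam1 by 0.03 ± 0.08 without a call. In STZ,BEZ Nfkbia was higher by 0.50 ± 0.17, and Ccl2, a chemokine for monocytes, was lower, with a difference of -0.26 ± 0.08. That is 10% higher and 10% lower, beside 13.1% and 8.45% of all genes. Of 11 genes for fatty acid uptake across capillaries, Cd36, a fatty acid transporter that muscle fibres also carry, was higher by 0.52 ± 0.12 and Angptl4, an inhibitor of lipoprotein lipase, by 0.53 ± 0.17, and Fabp5, a fatty acid binding protein, was lower, with a difference of -0.33 ± 0.09. In STZ,BEZ only Cd36 was called, higher by 0.47 ± 0.12, so that 18.2% and 9.1% of this list were higher in the 2 diabetic groups, beside 13.9% and 13.1% of all genes. Without the 30% dimmest genes those shares of all genes were 20.8% and 19.8%. Lymphatic markers gave 3 higher of 6 and 0 lower in STZ,SD, that is 50% higher beside 13.9% of all genes. These were Mmrn1 (0.52 ± 0.16), Reln (0.22 ± 0.08) and Itga9 (0.36 ± 0.14). Prox1, the factor that defines lymphatic endothelium, differed by 0.17 ± 0.11. In STZ,BEZ 1 of the 6 was called, Mmrn1 (0.55 ± 0.16), that is 16.7% beside 13.1% of all genes, or 19.8% without the 30% dimmest genes. None of these lists had a called gene in STZ,BEZ against STZ,SD. In that comparison 10 of the 39 other endothelial genes had an unadjusted p under 0.05 (limma), beside 1134 of all 19938 genes. The other lists above had 0 to 4 such genes. Of the 39 differences 30 were above 0, with a median of 0.05.

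**Figure D5:**
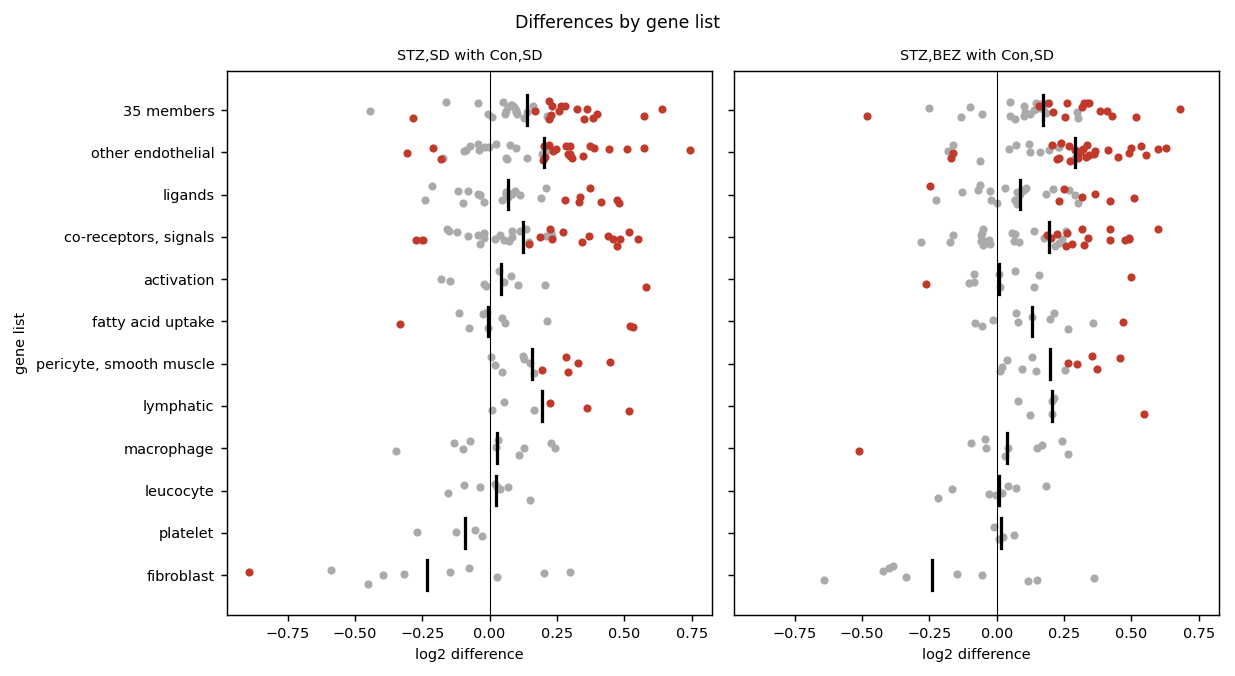
Each point is the log2 difference (horizontal axis) of 1 gene, with called genes in red and others in grey, for the 35 endothelial genes, 7 lists of vessel genes and 4 lists of other cell types, and a black bar marks the median of a list. The medians of the vessel lists lie between -0.01, for fatty acid uptake in STZ,SD, and 0.29, for other endothelial genes in STZ,BEZ, and only that lowest one is below 0, and those of the fibroblast list lie left of 0.

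Cells that share markers with endothelium were read beside these counts. Of 12 genes of pericytes and vascular smooth muscle, 5 were higher and 0 lower in each diabetic group against Con,SD. That is 41.7% higher, beside 13.9% of all genes in STZ,SD and 13.1% in STZ,BEZ. Abcc9 differed by 0.33 ± 0.07 and Notch3 by 0.29 ± 0.07 in STZ,SD. The mean of these 12 lay between 8.10 and 8.34 in Con,SD, between 8.34 and 8.51 in STZ,SD and between 8.36 and 8.49 in STZ,BEZ. These genes were thus called in the same direction as the endothelial genes, and their part in the result was not tested. Platelets also hold Pecam1 and Vwf, and of 4 platelet genes 0 were called in either group against Con,SD, with Pf4 at -0.13 ± 0.13 in STZ,SD. Among all genes 25.8% were called in STZ,SD and 21.6% in STZ,BEZ, shares that also stand beside the lists that follow. The platelet mean lay between 6.53 and 6.72 in Con,SD and between 6.44 and 6.60 in STZ,SD. Leucocytes share Pecam1, Fli1 and Icam2, and of 8 leucocyte genes 0 were called, with Ptprc, the pan-leucocyte antigen, at -0.04 ± 0.07. Their mean lay between 5.14 and 5.32 in Con,SD and between 5.18 and 5.24 in STZ,SD. Of 10 macrophage genes 0 were called in STZ,SD, with Adgre1, a surface marker of macrophages, at -0.10 ± 0.14. In STZ,BEZ 1 was lower, Lyz2, that is 10% beside 8.45% of all genes. The macrophage mean lay between 7.39 and 7.87 in Con,SD and between 7.24 and 8.05 in STZ,SD.

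Of the remaining lists, 0 of 3 red blood cell genes and 0 of 10 testis germ cell genes were called against Con,SD in either diabetic group. Beside these and the following lists, 13.9% of all genes were higher and 11.9% lower in STZ,SD, and 13.1% and 8.45% in STZ,BEZ. Of 5 adipocyte genes Lep, the gene of the hormone leptin, was lower in both, with differences of -1.51 ± 0.32 in STZ,SD and -1.41 ± 0.32 in STZ,BEZ. That is 20% lower in each, and 0 were higher. Of 3 Schwann cell genes, Mbp, a myelin protein, and Sox10, a neural crest factor, were higher in STZ,SD (66.7%), by 0.29 ± 0.08 and 0.23 ± 0.08. In STZ,BEZ Mbp alone was higher (33.3%), by 0.27 ± 0.08. Of 5 satellite cell genes, Myf5, a factor of the myogenic lineage, was higher in both, by 0.31 ± 0.08 and 0.23 ± 0.08, and Chodl in STZ,BEZ, by 0.35 ± 0.10. Of 13 hepatocyte genes, Alb, serum albumin, was lower in both, with differences of -0.86 ± 0.34 and -1.56 ± 0.34, and 7 more were lower in STZ,BEZ. The mean of these 13 was 11.7, 9.62 and 9.06 on Con,SD arrays 1 to 3. On the other Con,SD arrays it lay between 7.435 and 8.62, which overlaps the 7.52 to 8.81 of the diabetic arrays. Of 11 muscle fibre genes, Mb, myoglobin, was lower in STZ,SD (9.1%), with a difference of -0.75 ± 0.16, and 0 were called in STZ,BEZ.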

How the data were processed

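Total RNA of skeletal muscle from 17 mice was hybridised to a whole-transcript array of mouse genes (Affymetrix). The deposited values are log2 expression values that the authors made with RMA (background correction, quantile normalization, median polish). Expression Console 1.2 is the tool given in the processing notes of the submitters. Quantile normalization gives all arrays nearly the same distribution and hides a shift common to most genes. Neither detection calls nor scan dates were used, so no batch could be tested.

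Of 35556 probe sets, 21789 had 1 symbol. For a gene with several (999 genes) the probe set with the highest mean was kept, which left 19938 genes. In R 4.3.3, limma 3.58.1 (lmFit, eBayes, Benjamini-Hochberg over all genes, adjusted p under 0.1) fitted all 17 arrays in 3 groups. Significance analysis of microarrays, the method of the study, was an alternative with 100 permutations. On simulated data with 200 changed genes among 19938, limma recovered 90% of 1.5-fold changes for STZ,SD with Con,SD and 86% for STZ,BEZ with STZ,SD, with 11% and 10.3% false calls.

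The members, lists and several alternatives were chosen with earlier results of these data known. Every member is named with values, and from each of the other lists the counts, up to 4 genes with the smallest adjusted p and defining markers. Named outside this rule, after their values were seen, were Aqp1, Gimap4, Palmd, Apln, Vcam1 and, in STZ,SD, Vegfa. Lists for red blood cells, adipocytes, Schwann cells, satellite cells, hepatocytes, testis and muscle fibres were counted as well, and 17 listed genes were not matched. Promoter sequences are from RefSeq (GRCm38.p6).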

Additional observations from a re-analysis of the deposited data

Results flagged for a closer look

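In 3 of the 105 combinations of gene and group examined, 1 array lay far from the others of its group by Dixon's test, which by chance marks about 1 in 20 groups. Tie1 read 8.351 on STZ,BEZ array 3, where the next highest of the 5 arrays read 8.116. Plvap read 6.497 on Con,SD array 4, where the next lowest of the 7 read 6.809. Icam2 read 6.663 on Con,SD array 3, where the next lowest read 6.894. The calls of Plvap against Con,SD and of Tie1 in STZ,BEZ were kept when these arrays were left out, and the call of Icam2 in STZ,SD was not.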

How the results depend on the processing

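There were 28 alternatives. Of these, 27 were planned, several of them with earlier results of these data known, and 1 (the fibroblast level as a covariate) was added later. Over all of them, the number of endothelial genes called against Con,SD ran from 12 to 18 for STZ,SD and from 11 to 19 for STZ,BEZ. Between the 2 diabetic groups it was 0 throughout. The median difference of the 35 ran from 0.10 to 0.17, from 0.13 to 0.20 and from 0.01 to 0.07. No called difference changed sign. Under every alternative, 10 of 16 calls held in STZ,SD (Pecam1, Cdh5, Eng, Vwf, Egfl7, Robo4, Plvap, Ptprb, S1pr1 and Rasip1) and 9 of 15 in STZ,BEZ (Tie1, Eng, Vwf, Egfl7, Robo4, Plvap, Ptprb, S1pr1 and Rasip1). Differences that were not called changed sign in 7, 4 and 18 of the 35 genes, in the same order. Significance analysis of microarrays called 17 (15 higher, 2 lower), 19 (17 higher, 2 lower) and 0. The lowest count in STZ,SD, 12, was reached without STZ,SD array 2 or 3 or without Con,SD arrays 1, 3 and 4. Leaving these 3 control arrays out together is not a filter on the hepatocyte markers, whose mean was lowest, at 7.435, on Con,SD array 4.

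With the replicate number as a block, the counts were 15 (15 higher, 0 lower, 13 of them called without it), 16 (16 higher, 0 lower, 13 shared) and 0. Deviations of same-numbered arrays from their group means correlated between -0.239 and 0.083, none over 0.1, so they gave no sign of a pairing. Arrays of different numbers were not compared, so this check cannot exclude one.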
